A study of Mus musculus with 16 samples.

Results

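The genes described here are 10 targets and regulators of the ERK pathway: the phosphatases Dusp4 and Dusp6, the Sprouty genes Spry1, Spry2 and Spry4, the Sprouty-related gene Spred1, the ETS factors Etv4 and Etv5, and the immediate early genes Egr1 and Fos. They were chosen by name, with earlier results of these data known. Every non-control probe whose RefSeq accession belonged to one of them was taken. This gave 13 probes, and all 10 genes had a tested probe, out of 13917 genes with a tested probe on the array. Each gene was read by the one of its tested probes that was brightest on average, here called its main probe.

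In the ERK pathway, growth factor receptors act through Ras and the Raf kinases on MEK, and MEK phosphorylates ERK. Active ERK induces transcription factors such as Egr1 and Fos within minutes. It also induces its own inhibitors, among them the Dusp phosphatases, the Sprouty proteins and Spred1, and these transcripts are widely used to read the activity of the pathway. In mouse embryonic stem cells (mESCs) FGF4 made by the cells drives ERK and primes them for differentiation, and 2i medium blocks this with the MEK inhibitor PD0325901.

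Total RNA of 3 mESC lines grown in serum or in 2i was measured on 16 one-colour Agilent arrays. J1 is the wild-type line, from a 129S4/SvJae embryo, and the other 2 lines were derived from it. TKO cells lack the DNA methyltransferase genes Dnmt1, Dnmt3a and Dnmt3b, and 3B3l cells lack Dnmt3a and Dnmt3b and express exogenous Dnmt3b and Dnmt3l constitutively. In serum there were 4 arrays of J1 (J1-serum), 2 of TKO and 2 of 3B3l, and in 2i there were 3 of J1 (J1-2i), 3 of TKO and 2 of 3B3l. Serum cultures had fetal calf serum and LIF at 500 U/ml. The 2i cultures were kept for 2 weeks in serum-free N2B27 with LIF at 1000 U/ml, 1 µM PD0325901 and 3 µM CHIR99021, an inhibitor of GSK3. Only the serum cultures of J1 had a feeder layer, while all others grew on gelatin. Each comparison of 2i with serum therefore joins both inhibitors, the basal medium and the LIF dose, and in J1 the feeders, and these cannot be told apart. The labels do not state that arrays of a group came from separate cultures, so p-values measure the spread between these samples.

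The share of spots well above background ran from 39.69% to 48.96% by array, and arrays of the same group correlated at 0.968 to 0.992. The arrays lay on 3 slides. Slide 3, scanned on another day than the others, held all 3B3l arrays and J1-serum replicate 1. Comparisons of 3B3l with J1 thus crossed slides but for that array. In fits with the slide as a block, it alone ties the 3B3l arrays to J1. All 10 markers of pluripotent cells were well above background on every array. Of 20 fibroblast genes, which mark feeders, 15 were tested, and their mean log2 level was 0.93 to 1.11 in J1-serum, -2.76 to -2.66 in J1-2i, -1.31 to -1.17 in TKO-serum, -2.50 to -2.33 in TKO-2i, -0.45 to -0.35 in 3B3l-serum and -2.25 to -2.16 in 3B3l-2i. Of the 15 genes 13 were called lower in 2i in J1, 7 in TKO and 7 in 3B3l, the last with 1 higher (Pdgfrb, 1.81, limma adjusted p 0.0012), so some changed also where no feeders were used. Their summed intensity was 70300 to 106710 in J1-serum, 18713 to 20914 in TKO-serum, 42052 to 42410 in 3B3l-serum and 2969 to 5443 over all 2i arrays. Of 5 defining feeder markers 3 were tested (Col1a1, Col1a2 and Col3a1), and those called lower in 2i numbered 3 in J1, 1 in TKO (Col1a2) and 2 in 3B3l (Col1a1 and Col1a2). All 3 were well above background on every serum array, 2 on each J1-2i array, 3 on each TKO-2i array and 1 or 2 on the 3B3l-2i arrays. Fewer fibroblast cells and less RNA per cell cannot be told apart in such bulk RNA, and the part of either in the results below was not tested.

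Values are log2 intensity with the array's 75th percentile set to 0, and they compare arrays for 1 probe, never 1 probe with another. A gene was called where limma's adjusted p was at most 0.05 and the change at least 2-fold. No member probe was saturated on any array. A member in a group where no array was well above background has only an upper limit there. Its change is then given as at least N-fold, with the lowest signal well above background on each array in place of a dimmer value. These limits hold for all arrays and the main background subtraction, and another setting can give a smaller change.

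2i lowered from 5 to 7 of these 10 genes, depending on the line. In J1, 7 of 10 were called lower in 2i and 0 higher, where 12.6% of all genes were called lower and 10.1% higher. In TKO 5 were lower and 0 higher (all genes: 9.05% and 6.7%), and in 3B3l 6 were lower and 0 higher (7.93% and 5.6%). The median log2 change of the 10 genes was -1.63 in J1, -1.05 in TKO and -1.21 in 3B3l, beside medians over all genes of 0.05, 0.07 and 0.00. Dusp4 and Fos were tested only because serum arrays, where they are high, lay well above background, so these counts are a description and not support. With only genes well above background on all 16 arrays, which removes Dusp4, Spry4, Egr1 and Fos, 3 of 6 members were lower in J1, 1 in TKO and 2 in 3B3l, where 5.94%, 4% and 4.33% of 10142 genes were. Dusp4, Dusp6, Spry4, Egr1 and Fos were lower in all 3 lines. Spry1 and Etv4 were called in J1 only and Spred1 in 3B3l only, and the tests of whether their responses differed from J1 stand with these 3 genes, while Spry2 and Etv5 were called in none.

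**Figure D1:**
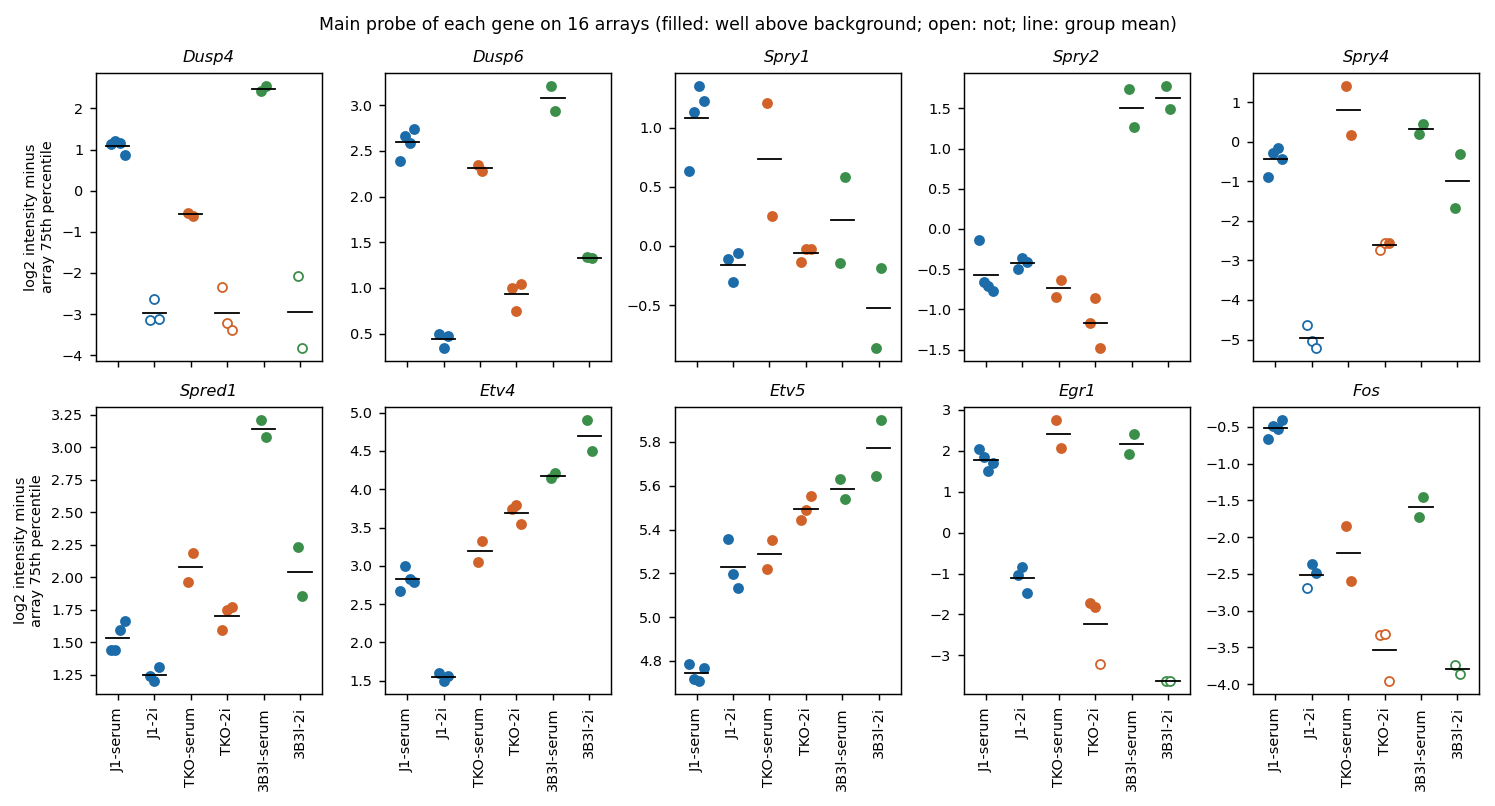
The log2 intensity minus the 75th percentile of the array (vertical axis) is plotted for the main probe of each of the 10 genes on every array of the 6 groups (horizontal axis), with a line at the group mean. Filled points were well above background and open points were not. Dusp6 runs from 2.28 to 3.21 in serum and from 0.35 to 1.33 in 2i, and the open points of Dusp4, Spry4, Egr1 and Fos are all in 2i groups.

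**Figure D2:**
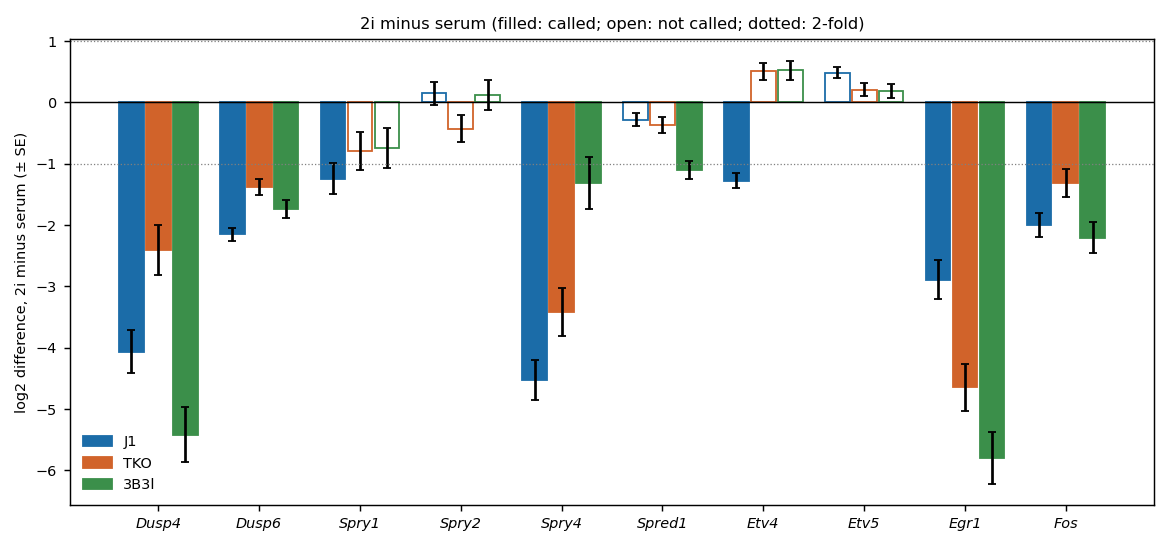
Bars give the log2 difference of 2i minus serum with its SE from limma for each gene in J1, TKO and 3B3l. Filled bars were called and open bars were not, and dotted lines mark a 2-fold change. Etv4 is the only gene with a called fall in one line, -1.27 in J1, and positive values in the others, and the bars of Dusp4, and of Spry4 in J1, Egr1 in 3B3l and Fos in TKO and 3B3l, end at signals that were not well above background.

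Dusp6, the cytoplasmic phosphatase that acts on ERK itself, was well above background on all 16 arrays. Of the 6 members for which this held, it fell most in each line. In J1-serum it stood at 2.39, 2.66, 2.59 and 2.74, and in J1-2i at 0.50, 0.35 and 0.48. In TKO it stood at 2.35 and 2.28 in serum and at 1.00, 0.75 and 1.04 in 2i, and in 3B3l at 3.21 and 2.94 in serum and at 1.33 on both arrays in 2i. No serum array of any line overlapped a 2i array. With 2i it changed on the log2 scale by -2.15 ± 0.11 in J1 (SE, limma adjusted p 6.1e-09), by -1.39 ± 0.13 in TKO (3.6e-06) and by -1.74 ± 0.14 in 3B3l (1.6e-06). Within slides the J1 change was -2.17 on slide 1 and -2.32 on slide 2. In the order of group means, J1-serum and TKO-serum did not differ beyond their spread (limma adjusted p 0.099), and the other neighbours did. The lowest group was J1-2i, which TKO-2i exceeded by 0.49 (0.0094) and 3B3l-2i by 0.89 (0.00022), both under 2-fold. The 3B3l-2i difference was 1.16 and called with the slide as a block. In that fit J1-serum replicate 1, the lowest J1-serum array at 2.39, alone ties the 3B3l arrays to J1.

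Since Dusp6 and Fos fell together, the 250 bases before their gene starts are shown, from RefSeq promoters of GRCm38.p6. They lie on the plus strand at chr10:99262981-99263230 for Dusp6 and chr12:85473640-85473889 for Fos. Of the 10 genes, 6 had promoters in this table, 7 in all since Etv5 has 2 starts. Searched on both strands were the CArG box of serum response factor, the ETS core CCGGAA, the AP-1 site TGACTCA and the cAMP response element TGACGTCA. None matched in these 7 windows, and among all 32851 promoters they were present in 1.47%, 12%, 4.46% and 1.55%. Capitals mark the TATA box TATAAA (12.4% of all promoters) and the TGACG core of the cAMP response element (17.8%), which were added after the sequences were seen and overlap no other match. Both occurred before Fos, the TATA box beginning 33 bases and the TGACG cores 129 and 66 bases before its start, and neither occurred before the other genes.
Dusp6: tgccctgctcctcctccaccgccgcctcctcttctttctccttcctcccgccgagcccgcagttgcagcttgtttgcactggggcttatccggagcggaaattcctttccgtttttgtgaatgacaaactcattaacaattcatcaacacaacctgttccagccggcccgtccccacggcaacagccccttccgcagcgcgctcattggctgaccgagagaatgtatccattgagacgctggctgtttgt
Fos: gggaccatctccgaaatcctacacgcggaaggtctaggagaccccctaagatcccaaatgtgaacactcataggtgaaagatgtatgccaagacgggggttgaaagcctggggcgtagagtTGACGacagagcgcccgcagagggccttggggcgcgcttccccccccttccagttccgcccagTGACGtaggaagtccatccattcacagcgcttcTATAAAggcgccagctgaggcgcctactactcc

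Dusp4, a nuclear phosphatase of ERK, fell below detection. It stood at 1.14, 1.21, 1.16 and 0.88 in J1-serum, at -0.53 and -0.61 in TKO-serum and at 2.41 and 2.54 in 3B3l-serum. In 2i it lay between -3.82 and -2.07 over 8 arrays and was well above background on none of them. By that limit the decrease with 2i was at least 16.7-fold in J1 (limma adjusted p 6.6e-07), 5.3-fold in TKO (0.00055) and 25.5-fold in 3B3l (1.7e-06). In J1 and TKO this equals the measured fold, since no 2i value lay under the lowest signal well above background. The changes were smaller in each line with a different background correction. With normexp, another background correction, the log2 changes were -3.17, -1.78 and -4.32 beside -4.06, -2.41 and -5.42 as measured, and all were called. In serum the 3 lines did not overlap: TKO differed from J1 by -1.67 (0.0042) and 3B3l by 1.38 (0.011). The response of TKO differed from that of J1 by 1.65 ± 0.53 (SE, 0.038) as measured, with both 2i groups below detection, and this call was lost when any of 8 of the 16 arrays was left out, without the filter on dim probes (0.067) and with the slide as a block (1.46, 0.068). That of 3B3l differed by -1.36 (0.1), not called, and was called with normexp (-1.15, 0.02) and without 3B3l-2i replicate 1 (-2.23, 0.0026), and -0.49 (0.46) without replicate 2. The difference of 3B3l from J1 in serum kept its size but lost its call without either 3B3l-serum array (1.44 and 1.32, adjusted p 0.053 and 0.071) and with the slide as a block (1.34, 0.067). The 2i groups are all below detection and have no order.

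Spry4, a Sprouty inhibitor of receptor tyrosine kinase signalling, differed between the lines in 2i. In J1 it went from -0.88, -0.28, -0.16 and -0.44 in serum to -4.64, -5.05 and -5.21 in 2i, where no array was well above background, a change of at least 7.86-fold (limma adjusted p 1.6e-07). In TKO it went from 1.40 and 0.18 to -2.75, -2.56 and -2.56, with 1 of 3 arrays in 2i well above background (-3.41 ± 0.39 SE, 2.1e-05, and -2.80 or -4.02 without TKO-serum replicate 1 or 2). In 3B3l it went from 0.19 and 0.45 to -1.67 and -0.31, all 4 arrays well above background. The 3B3l groups do not overlap, but the change of -1.31 ± 0.43 (SE) was at an adjusted p of 0.041, and the call was lost when any of 10 of the 16 arrays was left out, with adjusted p up to 0.35 (log2 change -0.64) without 3B3l-2i replicate 1. It was also lost with array median scaling (-1.19, 0.095) and without the filter on dim probes (0.082). In 2i the 3 lines did not overlap. Relative to J1-2i, Spry4 was at least 5.36-fold higher in 3B3l-2i (9.9e-06), a limit that was 8.58 without 3B3l-2i replicate 1 and 3.35 without replicate 2. TKO-2i stood 2.34 above J1-2i on the log2 scale as measured (0.00042), but with 1 of its 3 arrays well above background no firm lower limit can be given. With normexp the log2 differences were smaller than measured, at -3.09 for the J1 response, 2.58 for 3B3l-2i and 1.35 for TKO-2i, and all were called. The response of 3B3l was smaller than that of J1 by 3.21 ± 0.54 (SE, 0.00075) as measured, with J1-2i below detection. This was 1.88 (0.0071) with normexp and 3.89 or 2.53 without 3B3l-2i replicate 1 or 2, called each time. That of TKO was smaller by 1.11 ± 0.51 (0.14), not called, with 1.72 (0.034, called) and 0.50 (0.53) without TKO-serum replicate 1 and 2, and 0.23 (0.75) with normexp. In serum TKO stood 1.23 above J1 (0.019), which was 0.62 (0.31) without TKO-serum replicate 1 and 1.84 (0.0048) without replicate 2, and lost its call with the slide as a block (1.05, 0.069).

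The other Sprouty genes are described next and were not tested against Spry4. Spry1 stood at 0.63, 1.13, 1.35 and 1.23 in J1-serum and at -0.11, -0.30 and -0.06 in J1-2i, a log2 difference of -1.24 (SE 0.25, limma adjusted p 0.0013). In TKO it stood at 1.21 and 0.25 in serum and at -0.13, -0.02 and -0.03 in 2i (-0.79, 0.066), and in 3B3l at -0.14 and 0.58 in serum and at -0.86 and -0.19 in 2i (-0.74, 0.14). The TKO value was -1.27 and called (0.012) without TKO-serum replicate 2, and -0.31 (0.55) without replicate 1. The 3B3l value lay between -1.11 (0.071, without 3B3l-serum replicate 1) and -0.38 (0.59, without 3B3l-serum replicate 2) and was never called. No neighbours in the order of its 6 group means differed beyond their spread, and the differences of the TKO and 3B3l responses from that of J1, 0.45 and 0.50, had adjusted p of 0.47 and 0.43. In serum 3B3l differed from J1 by -0.87 (0.027), under 2-fold. It was called in the absence of J1-serum replicate 1 (-1.02, 0.011) or of 3B3l-serum replicate 2 (-1.23, 0.017), but was -0.50 (0.31) in that of 3B3l-serum replicate 1 and -0.41 (0.46) with the slide as a block.

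Spry2 was called with 2i in no line and was highest in 3B3l. It stood at -0.13, -0.66, -0.71 and -0.77 in J1-serum and at -0.50, -0.36 and -0.41 in J1-2i. In TKO it stood at -0.85 and -0.63 in serum and at -1.17, -0.85 and -1.48 in 2i, and in 3B3l at 1.75 and 1.27 in serum and at 1.77 and 1.49 in 2i. The 2i changes were 0.15, -0.43 and 0.12, with limma adjusted p of 0.54, 0.17 and 0.82. The media overlapped in J1 and 3B3l and narrowly did not in TKO. The 4 arrays of 3B3l lay above all 12 others, by 2.08 ± 0.21 (SE, 5.4e-06) against J1 in serum and 2.05 ± 0.22 (2e-05) in 2i. With the slide as a block these were 1.64 (0.00073) and 1.47 (0.0095). J1-serum replicate 1, the J1 array on the slide of 3B3l, was the highest J1 array at -0.13.

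Spred1, which binds Ras and its inhibitor neurofibromin, was highest in 3B3l-serum. Its main probe stood at 1.44, 1.44, 1.59 and 1.67 in J1-serum, at 1.24, 1.20 and 1.31 in J1-2i, at 1.96 and 2.19 in TKO-serum and at 1.60, 1.75 and 1.77 in TKO-2i. In 3B3l it stood at 3.21 and 3.08 in serum and at 2.23 and 1.85 in 2i. The 2i changes of -0.28 in J1 (limma adjusted p 0.047) and -0.37 in TKO (0.045) were under 2-fold, and that of 3B3l was -1.10 ± 0.14 (SE, 7.9e-05). The response of 3B3l differed from that of J1 by -0.82 (0.0044), under 2-fold and called only without 3B3l-2i replicate 1 (-1.004), and that of TKO by -0.09 (0.76). The call in 3B3l lies close to the 2-fold limit. It was -0.97 with array median scaling, -0.99 with normexp and -0.91 without 3B3l-2i replicate 2, and a second probe of the same accession changed by -0.87 (0.00016). In serum 3B3l exceeded J1 by 1.61 ± 0.12 by the main probe (5.2e-07) and by 1.20 by the second (1.6e-06). The remaining probe, for another accession of the gene, was well above background on 2 J1-serum arrays only and was not tested.

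The ETS factors, which ERK signalling induces in many tissues, fell in J1 alone (Etv4) or in no line (Etv5). Etv4 stood at 2.67, 3.00, 2.83 and 2.79 in J1-serum and at 1.60, 1.49 and 1.56 in J1-2i, a log2 difference of -1.27 (SE 0.12, limma adjusted p 1.8e-06). In TKO it stood at 3.05 and 3.33 in serum and at 3.75, 3.80 and 3.54 in 2i. In 3B3l it stood at 4.14 and 4.21 in serum and at 4.91 and 4.50 in 2i. The 2i arrays of both mutant lines thus lay above their serum arrays, by 0.50 ± 0.14 (0.016) and 0.53 ± 0.16 (0.027), under 2-fold, while those of J1 lay below. The response differed from that of J1 by 1.78 ± 0.19 (SE, 2.2e-05) in TKO and 1.80 ± 0.20 (2.6e-05) in 3B3l. The second Etv4 probe changed by -1.25 (J1, 1.6e-05), 0.20 (TKO, 0.44) and 0.26 (3B3l, 0.41), and its differences from J1 were 1.45 (6e-04) and 1.51 (0.00059). In 2i Etv4 was 4.42-fold higher in TKO (2.5e-07) and 8.87-fold higher in 3B3l (2.2e-08) than in J1. Every neighbour in the order of its 6 group means differed at an adjusted p of at most 0.05. The smallest of these steps, TKO-serum over J1-serum, was 0.37 (0.049). It was 0.29 (0.15) with quantile normalization and 0.34 (0.1) with the slide as a block.

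Etv5 was the member with the smallest range over the 16 arrays. It stood at 4.79, 4.72, 4.71 and 4.77 in J1-serum and at 5.36, 5.20 and 5.13 in J1-2i, a difference of 0.48 ± 0.09 (SE, limma adjusted p 0.00056) in the direction opposite to Etv4 in the same cells. In TKO it stood at 5.22 and 5.35 in serum and at 5.44, 5.49 and 5.55 in 2i, and in 3B3l at 5.63 and 5.54 in serum and at 5.65 and 5.90 in 2i. Those changes were 0.21 (0.16) and 0.19 (0.29). No comparison of media within a line, or of a mutant line with J1 within a medium, reached 2-fold for Etv5. J1-serum was its lowest group, exceeded by TKO-serum by 0.54 (0.00085) and by 3B3l-serum by 0.84 (2.1e-05).

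**Figure D3:**
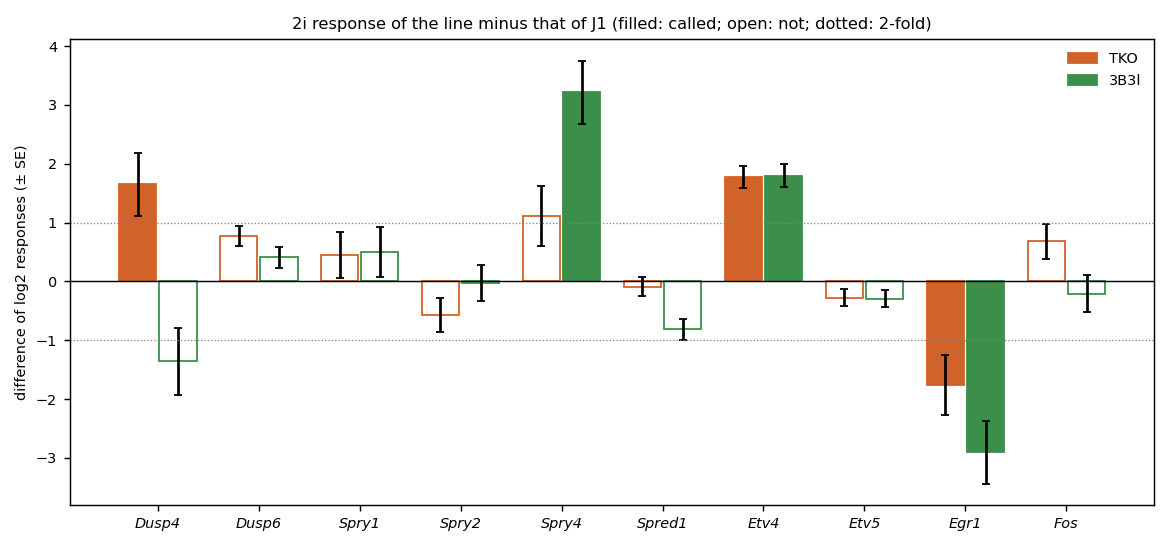
Bars give the 2i response of TKO or 3B3l minus that of J1 on the log2 scale, with the SE from limma, for each of the 10 genes. Filled bars were called, open bars were not, and dotted lines mark 2-fold. Etv4 stands at 1.78 and 1.80, Egr1 at -1.76 and -2.90, and Spry4 is called in 3B3l only, at 3.21.

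Egr1, a zinc finger factor of the immediate early response, fell further in the mutant lines than in J1. It stood at 2.04, 1.84, 1.51 and 1.71 in J1-serum and at -1.03, -0.85 and -1.47 in J1-2i, all well above background, a log2 difference of -2.89 (SE 0.32, limma adjusted p 8.6e-06). In TKO it went from 2.75 and 2.05 to -1.71, -1.82 and -3.21, the last not well above background (-4.65 ± 0.39, 1.2e-06). In 3B3l it went from 1.92 and 2.41 to -3.63 on both arrays, neither well above background. By the limit used here this was at least 22.4-fold (5.5e-07), beside a measured 7.41-fold in J1. Without 3B3l-serum replicate 2 the limit was 18.9-fold. With normexp the log2 changes were -4.02 for TKO and -4.30 for 3B3l, both called. In serum neither TKO (adjusted p 0.2) nor 3B3l (0.41) was called different from J1. In 2i Egr1 was at least 2.3-fold lower in 3B3l than in J1 (0.00031) and in TKO the difference was -1.13 on the log2 scale (0.032). Set against the J1 response, that of 3B3l differed by -2.90 ± 0.53 (SE, 0.0013) as measured, or -1.76 (0.0034) with normexp, and that of TKO by -1.76 ± 0.50 (0.021). The TKO value was -1.41 and not called (0.11) without TKO-serum replicate 1. The difference between TKO-2i and J1-2i was not called without J1-2i replicate 1 (-1.08, 0.087) or 2 (-0.996, 0.11), without TKO-2i replicate 3 (-0.65, 0.099), with normexp (-0.77, 0.036) or without the filter on dim probes (0.059).

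Fos, which pairs with Jun proteins in the AP-1 factor, was read from 8 to 10 spots per array. It stood at -0.66, -0.50, -0.52 and -0.40 in J1-serum and at -2.69, -2.37 and -2.49 in J1-2i, where 2 of 3 arrays were well above background. With 2i it changed by -1.995 ± 0.19 (SE, limma adjusted p 2.1e-06). In TKO it stood at -1.84 and -2.60 in serum and at -3.34, -3.32 and -3.96 in 2i, and in 3B3l at -1.73 and -1.46 in serum and at -3.73 and -3.87 in 2i, with no 2i array of either line well above background. By the limit used here the decrease with 2i was at least 2.18-fold in TKO (0.00064) and 1.65-fold for 3B3l (2.7e-05). Without TKO-serum replicate 1 the TKO limit was 1.68-fold. The 3B3l change was -1.17 (0.00014) with normexp, beside -2.21 as measured. The TKO change fell under 2-fold with normexp (-0.64) and without TKO-serum replicate 1 (-0.94). J1-serum, the group on feeders, was the highest. In serum Fos differed from J1 by -1.70 ± 0.22 in TKO (4.5e-05) and by -1.07 ± 0.22 in 3B3l (0.0013), and the second of these was -0.81 with normexp, -0.93 with the slide as a block and -0.94 without 3B3l-serum replicate 1. In 2i TKO differed from J1 in Fos by -1.02 as measured (0.0032), with 2 of 3 J1-2i arrays and no TKO-2i array well above background. By the limit used here it was at least 1.78-fold lower, which is under 2-fold. The call was lost with normexp (-0.55) and without J1-2i replicate 2 (-0.95) or TKO-2i replicate 3 (-0.81).

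Against J1 in serum, 1 member was called higher (Spry4) and 2 lower (Dusp4, Fos) in TKO, where 7.75% and 8.72% of all genes were. In 3B3l, 4 were higher (Dusp4, Spry2, Spred1, Etv4) and 1 lower (Fos), beside 9.84% and 9.41%. In 2i, 2 were higher (Spry4, Etv4) and 2 lower (Egr1, Fos) in TKO, beside 3.79% and 3.54%, and 3 were higher (Spry2, Spry4, Etv4) and 2 lower (Egr1, Fos) in 3B3l, beside 7.8% and 6.55%. The last Fos call (-1.28, limma adjusted p 0.00089) has no lower bound, since 3B3l-2i was below detection at a limit above the J1-2i level, and it was lost with normexp (-0.50) and with the slide as a block (-1.09, 0.07). The differences of the 2i responses from that of J1 gave 2 positive calls (Dusp4, Etv4) and 1 negative (Egr1) in TKO, beside 7.74% and 7.49% of all genes, and 2 positive (Spry4, Etv4) and 1 negative (Egr1) in 3B3l, beside 8.6% and 8.57%. These comparisons share the J1 arrays, so their counts are not independent. Over all genes the median of 3B3l minus J1 in serum was 0.13, and 0.15 over all probes, and the member differences given there are not corrected for it.

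Other genes of the pathway were taken from 3 lists, also chosen with earlier results of these data known, so their counts are a description. Of the 12 further inhibitors of ERK signalling, 9 were tested, and those lowered in 2i numbered 4 (J1), 3 (TKO) and 4 (3B3l), with 0 raised in each, where 12.6%, 9.05% and 7.93% of all genes were lowered. Dusp2 and Dusp5, nuclear phosphatases like Dusp4, were lower in all 3 lines and were not well above background in 2i, so they too were tested only through serum, and 2, 1 and 2 calls stand without them. Dusp2 was at least 7.82-fold lower in J1 (limma adjusted p 1.4e-09), 9.69-fold in TKO (6.7e-08) and 3.32-fold in 3B3l (1.9e-07), and Dusp5 at least 3.29-fold (7.1e-09), 2.9-fold (6.3e-08) and 10.8-fold (1.8e-08). Dusp9, a cytoplasmic phosphatase of ERK, changed by -2.41 in J1 (1.2e-08) and -1.68 in TKO (3.3e-06), and Errfi1, an inhibitor of the EGF receptor, by -1.08 in J1 (8.3e-06) and -1.66 in 3B3l (5.6e-06). Dusp1, the fourth gene called in 3B3l and named after its value was seen, changed by -1.17 (0.00036). The median of the 9 genes was -0.18 in J1, -0.55 in TKO and -1.13 in 3B3l, beside the same medians over all genes as for the members.

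The kinases and adaptors of the cascade itself form the next list. Of 22 listed genes, 21 were tested, and 2 were lower and 0 higher in J1, 1 was lower in TKO and 0 were called in 3B3l, where 12.6%, 9.05% and 7.93% of all genes were lower, so nothing particular to the list is read from these counts. In J1 these were the scaffold Ksr1, at least 4.01-fold lower (limma adjusted p 5e-04), and Mapk3, which encodes ERK1, at -1.14 (5e-07). In TKO it was the kinase gene Braf at -1.04 (0.0019), a gene named after its value was seen. The list medians were -0.00, 0.13 and -0.13.

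A list of 23 further outputs of ERK signalling holds the ETS factors Elk1, Elk3 and Elk4 beside genes that ERK induces. Of these 23 genes, 21 were tested. In J1, 11 were lower in 2i and 1 higher, in TKO 5 and 1, and in 3B3l 9 and 1, beside 12.6% and 10.1%, 9.05% and 6.7%, and 7.93% and 5.6% of all genes. Fosl1 and Fosl2 were tested only through serum groups and are 2, 1 and 2 of the lower ones. Among the genes lower in J1 were Phlda1 (at least 19.1-fold lower, limma adjusted p 9.9e-07), Ier3 (-3.68, 1.9e-10) and Fosl1, an AP-1 subunit (at least 3.36-fold lower, 9.4e-07), whose place among the lowest is not settled since J1-2i was below detection. Fosl1 is counted in TKO and 3B3l too, but no TKO-serum or 3B3l array showed it well above background, so those calls carry no measured change, and without it 4 were lower in TKO and 8 in 3B3l. Phlda1, Ier3, Junb and Myc were lower in all 3 lines. Ier3 changed by -1.08 in TKO (9e-05) and -1.89 in 3B3l (2.3e-06), and Phlda1 by -2.57 (0.00066) and -2.73 (0.0011). Junb, a partner of Fos, fell by 1.65 (J1), 1.76 (TKO) and 1.96 (3B3l). Myc, a transcription factor of cell growth, fell by 1.74, 2.61 and 1.76. The one gene higher in J1 was the ephrin receptor Epha4, by 2.75 (2.1e-10), and the smallest called decreases there were in Btg2 (-1.27) and the ETS factor gene Elk4 (-1.42). The genes higher in TKO and 3B3l, named after their values were seen, were Elk3 (1.86) and again Epha4 (1.26). The list medians were -1.27 in J1, -0.05 in TKO and -0.62 in 3B3l, beside 0.05, 0.07 and 0.00 over all genes.

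**Figure D4:**
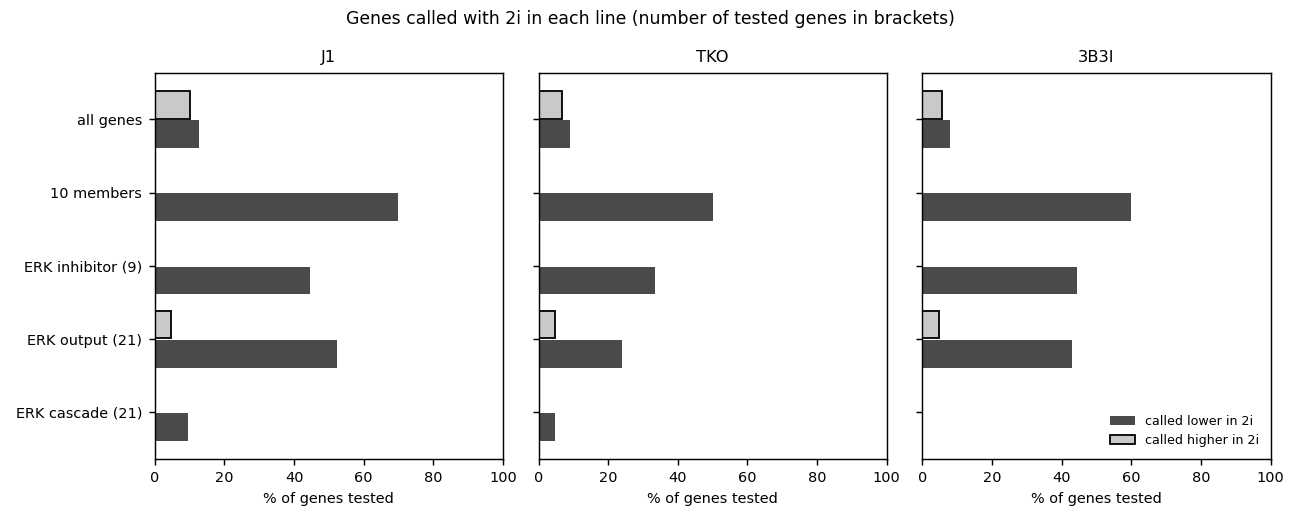
Bars give the percentage of tested genes called lower (dark) or higher (light) in 2i than in serum in each line. They cover all 13917 genes, the 10 members, and the further inhibitors (9 tested), output genes (21) and cascade genes (21) of the ERK pathway. The members stand at 7, 5 and 6 of 10 lower, and the cascade genes at 2, 1 and 0 of 21. The output genes include Fosl1, which was not well above background in TKO-serum or in 3B3l.

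The genes whose level over the 16 arrays was most like that of the members were found by Pearson correlation among 13618 genes. With the mean of the 10 centred members these were Cnn2 (0.993), which encodes a calponin that binds actin, Gbp2 (0.990), Gbp2b (0.983), Flnc (0.982) and Pkdcc (0.981). For Dusp6 they were Fkbp10 (0.983), Cnn2 (0.982) and Gbp2 (0.978), and for Fos Slc12a4 (0.988), App (0.981) and Hif3a (0.976). The points share media and lines, and these values describe the 6 groups more than 16 independent samples. Among the 45 pairs of members, the correlation over all arrays ran from -0.83 (Etv5 and Fos) to 0.93 (Dusp4 and Dusp6, -0.08 once each group mean was removed). With group means removed it ran from -0.72 (Spry1 and Spry2) to 0.85 (Spry1 and Spry4). The values of Dusp4, Spry4, Egr1 and Fos include 2i arrays below detection.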

How the data were processed

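Per the file headers, the arrays were read with Agilent Feature Extraction 11.5.1.1, and the deposited scanner files give a background-subtracted, detrended intensity per spot, with no scaling between arrays, and flags of 0 or 1. The authors also deposited log2 values for 30170 probes, quantile-like across arrays, used as an alternative only. By correlation with the scanner files, 3 of these 16 columns matched the array of the same label best. An array of the same group was the best match for 16. Here log2 intensity was taken minus the 75th percentile of each array, outlier spots were left out, and repeated spots averaged. Tests covered the 27126 probes that all arrays of some group showed well above background (the flag on at least 50% of a probe's spots). limma 3.58.1 (R 4.3.3) fitted 6 group means over all 16 arrays, and p-values were adjusted by Benjamini-Hochberg over all tested probes. Tests were two-sided. Some probes lacked a value in a whole group and got no estimate there.

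Differences of responses came from the same fit. For arrays, the number of arrays and the signal over background limit the precision. The scripts were tested on simulated data. Groups came from the labels. Genes named were all members, the list genes with the 3 lowest and 3 highest called changes in J1 or called alike in all 3 lines, and the genes most correlated with the members. The members and lists were chosen with earlier results of these data known. Probe genes were taken through RefSeq accessions of GRCm38.p6, while the array grid was made on mm9, so no probe coordinates are given. Alternatives were other scalings, background correction, filters, fold limits, probes, blocks, an unmoderated unpaired test, and leaving out each array.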

Additional observations from a re-analysis of the deposited data

Results flagged for a closer look

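Of the 20 tests of whether a line's 2i response differed from that of J1 for these genes, those past the threshold are repeated here as measured log2 differences. In TKO they were Dusp4 (1.65, limma adjusted p 0.038), Etv4 (1.78, 2.2e-05) and Egr1 (-1.76, 0.021). In 3B3l they were Spry4 (3.21, 0.00075), Etv4 (1.80, 2.6e-05) and Egr1 (-2.90, 0.0013). With normexp, those of Spry4 and Egr1 were 1.88 and -1.76, still called. Both Etv4 differences rest on groups that were well above background on every array. For Dusp4 both 2i groups were below detection, so its difference follows the serum levels, 1.096 ± 0.15 (SD, n = 4) in J1 and -0.57 (n = 2) in TKO. No J1-serum array passed Dixon's criterion for an outlier in any member, and groups of 2 or 3 arrays were not tested for one.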

How the results depend on the processing

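Of 2124 recomputed member differences, 2045 kept their direction and their side of the threshold, and 22 uncalled ones changed sign. Of the rest, 48 lost a call, 9 gained one and 0 called values changed sign. These totals leave out the changes of fold limit and probe and the unmoderated test, which were applied to counts of members only. Counts of members called changed by over 1.5 times in these cases. The filter on all 16 arrays removes Dusp4, Spry4, Egr1 and Fos and left 3 called for the J1 response, 1 for TKO and 2 for 3B3l, 0 and 3 for TKO and 3B3l against J1 in serum, 1 and 2 in 2i, and 1 for each difference of responses. Without a fold limit, 6 and 7 were called for TKO against J1 in serum and 2i, and 8 and 8 for 3B3l. Normexp gave 2 for TKO against J1 in 2i, and the slide as a block gave 3 for 3B3l against J1 in serum. The unmoderated unpaired test with Benjamini-Hochberg adjustment gave 0 for 2i in 3B3l and 2 for TKO against J1 in 2i. Leaving out each array gave 7 to 7 called with 2i in J1, 4 to 6 in TKO and 5 to 6 in 3B3l, 2 to 3 and 3 to 6 for TKO and 3B3l against J1 in serum, 2 to 4 and 5 to 5 in 2i, and 2 to 3 and 3 to 5 for the differences of responses. Replicate numbers did not pair the arrays: deviations of same-numbered arrays correlated at -0.27 to 0.29 over 33 pairs. With the replicate number as a block, 7 members were called for the J1 response, 5 for TKO and 5 for 3B3l, and Spry4 lost its calls in 3B3l (-1.31, adjusted p 0.088) and for TKO against J1 in serum (1.25, 0.061). Levels below detection limit the sizes given for Dusp4, Spry4, Egr1 and Fos in 2i.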
